A study of Mus musculus with 6 samples.

Results

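The T-cell receptor complex genes described here are 10 genes, the CD3 chains *Cd3e*, *Cd3d*, *Cd3g* and *Cd247*, the coreceptors *Cd4*, *Cd8a* and *Cd8b1*, and the proximal signaling genes *Lck*, *Zap70* and *Lat*. They were chosen by symbol, and all 10 were found among the 39179 genes of the bone marrow count tables and passed the filter on low counts that left 15980 genes for testing. In T cells the antigen-binding receptor chains have almost no cytoplasmic part, and the CD3 chains carry the signal through tyrosine motifs. LCK, brought in by CD4 or CD8, phosphorylates these motifs, ZAP-70 docks on them, and ZAP-70 in turn phosphorylates LAT, the membrane scaffold on which the downstream enzymes assemble. Mature T cells are a minor population of mouse bone marrow. Several of these genes are also used outside T cells: *Cd4* and *Cd8a* in dendritic cells, *Lck*, *Zap70* and *Cd247* in natural killer (NK) cells, and *Lat* in megakaryocytes, platelets and mast cells.

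Bone marrow RNA of 6 littermate mice was compared, 3 *MxCDX2* mice and 3 control mice. The *MxCDX2* mice had the genotype *RsCDX2::Mx1Cre*, so that Cre recombinase, driven by the interferon-inducible *Mx1* promoter, removes a stop sequence and allows human *CDX2* to be expressed from the *Rosa26* locus. The controls were not alike in genotype: control 1 was *RsCDX2* without Cre, control 2 was *Mx1Cre* without the *CDX2* allele, and control 3 was a wild-type mouse, so that each control genotype had 1 mouse. All 6 mice, aged 3 months, were injected 3 times with poly(I:C), an inducer of interferon, at 10 µg/g, and marrow was taken 6 weeks later. The *Mx1* promoter responds to interferon in many tissues, not in stem cells only. The values come from whole marrow, in which fewer cells of a type and less RNA per cell cannot be told apart.

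Between 38646101 and 49899650 reads were counted on genes per mouse. Counts on mouse *Cdx2* were 4, 0 and 0 in controls 1 to 3 and 152, 155 and 183 in the *MxCDX2* mice. The reads were aligned to the mouse genome, so these counts cannot tell reads of the human transgene from those of the mouse gene. The second principal component, with 15.9% of the variance, set the wild-type control apart from the other mice of its group. The T-cell receptor constant regions *Trac*, *Trbc1* and *Trbc2* were present in every mouse, with 111 to 473 counts per gene outside the wild-type control and 401 to 522 in it. These counts show that T-cell RNA was present, and not that the reads of the members came from T cells. The 10 members together stood at 107, 107 and 340 CPM (counts relative to the total of the mouse) in controls 1 to 3 and 102, 52.6 and 81.1 CPM in *MxCDX2* mice 1 to 3. The members were thus a small part of the marrow RNA in every mouse.

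Of the 10 members, only *Cd4* fell in *MxCDX2* marrow by the call rule used here, a log2 fold change beyond 1 in size with an adjusted p below 0.05 (edgeR's quasi-likelihood test, Benjamini-Hochberg over all tested genes), and none rose. Over all tested genes, 9.03% were called lower and 4.59% higher, so that 1 call among 10 members is close to the background. All 10 fold changes were below 0, with a median log2 fold change of -0.65, against a median of 0.002 and 49.9% of values below 0 over all tested genes. Yet in 8 of the 10 members the values of the groups overlapped, and in 2, *Cd4* and *Cd3d*, every *MxCDX2* mouse lay below every control mouse. Of all tested genes, 20.7% had this separation. At an unadjusted p below 0.05, there were 3 members, *Cd4*, *Cd3d* and *Lat*. DESeq2, with the same thresholds, called these 3 members lower against 12.0% of all genes it tested, and limma voom called *Cd4* and *Cd3d* lower against 8.25%.

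The wild-type control had the highest value of the 3 controls for 9 of the 10 members, *Cd3d* being the exception, while it was the highest control for 41.2% of all tested genes. For 7 members it reached at least 2 times the mean of controls 1 and 2, a level reached by 11.9% of tested genes. The members summed to 5298, 5070 and 15398 normalized counts (counts brought to a common library size after TMM) in controls 1 to 3 and to 4572, 2242 and 3523 in *MxCDX2* mice 1 to 3. Relative to the library, the sum in the wild-type control was therefore 2.97 times the mean of the other controls. *Lat* (5427) and *Cd4* (4068) made up most of the sum in that mouse, and the sum of the 4 CD3 chains was 1.61 times that mean. Without it, 4 of the 10 members had a fold change above 0 and the median log2 fold change was -0.25. *Cd4* was then still the only member called, against 9.16% of tested genes called lower. In the plot of normalized counts by mouse, the wild-type control stands at the top of its group in all panels but that of *Cd3d*.

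**Figure D1:**
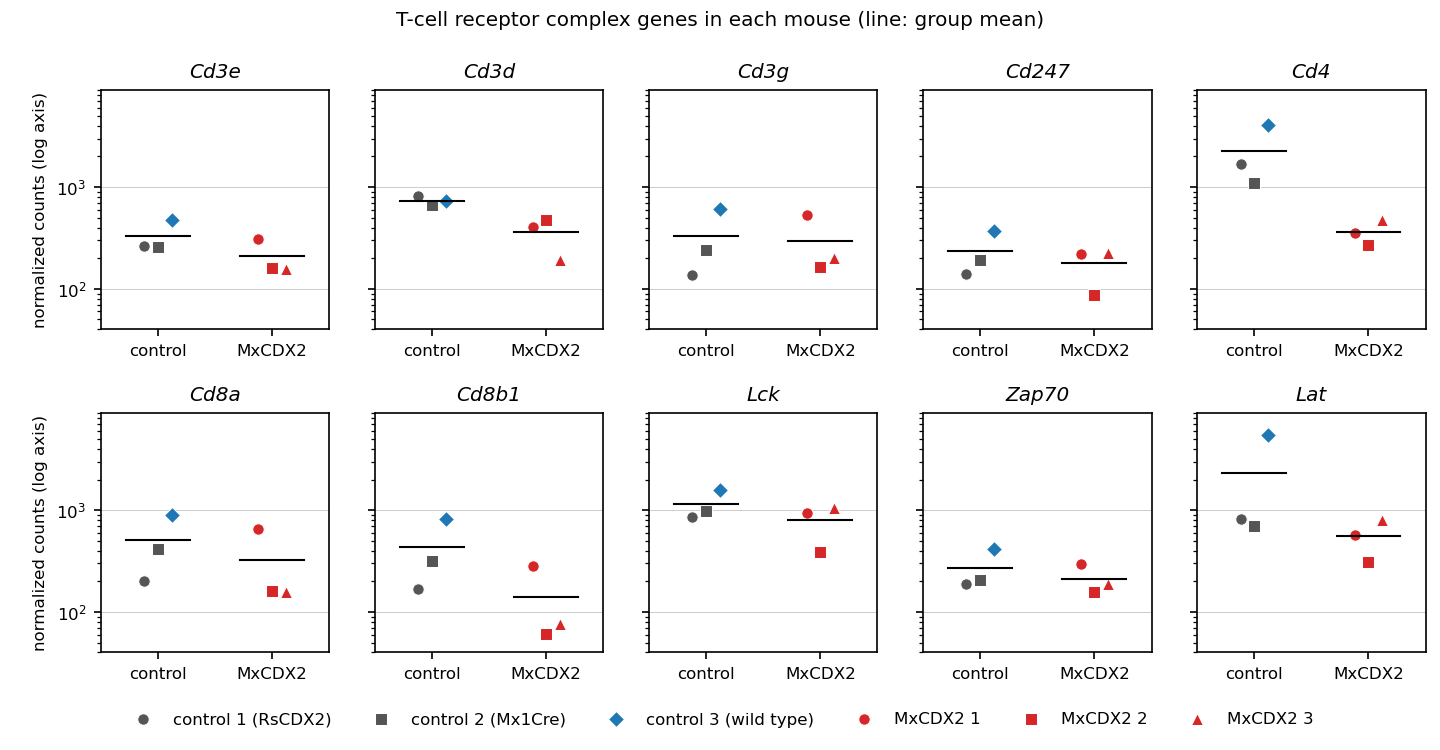
Normalized counts (log axis) of the 10 members in each of the 3 control and 3 *MxCDX2* mice, one panel per gene, with the group mean as a line. The groups are separate for *Cd4* and *Cd3d* and overlap for the other 8 genes, and the wild-type control (blue diamond) is the highest control for 9 of 10 genes.

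The CD3 chains form dimers in the receptor complex, CD3 epsilon pairing with CD3 delta or CD3 gamma, and CD3 zeta, encoded by *Cd247*, pairing with itself. *Cd3g*, *Cd3d* and *Cd3e* lie together on chromosome 9 (GRCm38), the first at chr9:44969572-44980431 (minus strand), the second at chr9:44981786-44987339 (plus strand) and the last at chr9:44998740-45009627 (minus strand). *Cd3g* and *Cd3d* start 1355 bases apart and are read in opposite directions, and *Cd3e* starts 27841 bases from *Cd3d*. The promoters of these neighbours are shown as a description, and a link between their letters and the values of the genes was not tested. Each is the 250 bases before the start site from RefSeq (GRCm38.p6), 5′ to 3′ on the strand of the gene, at chr9:45009612-45009861 for *Cd3e*, chr9:44981536-44981785 for *Cd3d* and chr9:44980432-44980681 for *Cd3g*. Capitals mark the core of ETS factor sites, GGAAG or its reverse complement CTTCC.
Cd3e: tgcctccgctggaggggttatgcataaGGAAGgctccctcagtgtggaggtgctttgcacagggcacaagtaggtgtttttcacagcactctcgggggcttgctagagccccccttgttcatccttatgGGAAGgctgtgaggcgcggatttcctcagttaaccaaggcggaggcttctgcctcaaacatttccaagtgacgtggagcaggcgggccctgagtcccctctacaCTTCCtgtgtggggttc
Cd3d: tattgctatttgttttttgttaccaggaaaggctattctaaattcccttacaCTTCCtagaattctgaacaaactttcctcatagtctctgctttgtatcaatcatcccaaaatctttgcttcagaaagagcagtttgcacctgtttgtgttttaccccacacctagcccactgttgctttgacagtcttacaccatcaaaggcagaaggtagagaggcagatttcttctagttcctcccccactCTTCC
Cd3g: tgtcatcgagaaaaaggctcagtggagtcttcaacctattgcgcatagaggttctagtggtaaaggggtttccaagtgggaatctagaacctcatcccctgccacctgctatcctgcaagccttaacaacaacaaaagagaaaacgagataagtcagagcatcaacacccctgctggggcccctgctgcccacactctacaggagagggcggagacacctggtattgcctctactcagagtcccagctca

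The ETS core matched 3 times in the *Cd3e* window, 2 times in that of *Cd3d* and 0 times in that of *Cd3g*. RefSeq promoters were found for 8 of the 10 members, with 11 windows in all because *Lck* has 2 and *Zap70* 3 start sites. The table has no entry for *Cd4* and *Cd8b1*. The ETS core was in 9 of the 11 windows and in 64.1% of all 32851 windows of this length. The core of CDX sites, TTTAT on either strand, was in 2 of the 11 windows, 1 time in *Cd247* and 2 times in *Cd8a*, and in 37.3% of all windows. RUNX cores (TGNGGT) were in 6 windows against 40.1% of all windows, TCF/LEF cores (CTTTG) in 6 against 48.6%, E-boxes (CANNTG) in 10 against 66.2%, and the GATA core AGATAA in 1, that of *Cd3g*, against 9.99%. All motifs were searched on both strands, and a base may belong to several matches. These matches describe letters in a short window and no binding.

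*Cd3d* had 814, 671 and 729 normalized counts in controls 1 to 3 and 409, 475 and 191 in *MxCDX2* mice 1 to 3. All 3 *MxCDX2* mice were below all 3 controls, and the wild-type control lay between the other controls. The means were 738 ± 71.8 (SD, n = 3) and 358 ± 149, with a log2 fold change of -1.04 ± 0.34 (SE) and a 95% interval from -1.85 to -0.24. This did not pass the test (adjusted p = 0.0707, edgeR), but it did with DESeq2 (adjusted p = 0.0180) and limma voom (adjusted p = 0.0446). Without the wild-type control the log2 fold change was -1.03 (adjusted p = 0.108).

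*Cd3e* had 262, 260 and 475 normalized counts in the controls and 313, 160 and 157 in the *MxCDX2* mice. *MxCDX2* mouse 1 exceeded controls 1 and 2, and the log2 fold change of -0.67 ± 0.39 (SE) did not pass the test (adjusted p = 0.270). *Cd3g*, 1355 bases from *Cd3d*, had 135, 240 and 615 normalized counts in the controls and 532, 163 and 201 in the *MxCDX2* mice. The highest *MxCDX2* mouse thus lay close to the wild-type control and the lowest close to control 1. Its log2 fold change was -0.15 ± 0.67 (SE), with a 95% interval from -1.74 to 1.44, and 0.67 without the wild-type control. Across the 6 mice, the log2 values of *Cd3d* were hardly related to those of *Cd3g* (r = 0.07), *Cd247* (r = -0.04) and *Lck* (r = 0.09), whereas *Cd3d* and *Cd3e* had r = 0.63 and *Cd3e* and *Cd3g* r = 0.77. These correlations share the same 6 libraries and the same 2 groups and are given as a description.

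*Cd247* (chr1:165788681-165877277, plus strand) had 141, 193 and 367 normalized counts in the controls and 222, 87.2 and 225 in the *MxCDX2* mice. *MxCDX2* mice 1 and 3 lay above controls 1 and 2, and the log2 fold change was -0.39 ± 0.49 (SE, adjusted p = 0.621). This gene shares 3007 bases of exons with *Pou2f1* on the opposite strand, which had 10813 counts over the 6 mice, and 206 bases with *Gm16565* on the same strand. The libraries were stranded, but the strand setting of the counting is not given in the sources used here. The low counts of *Cd247* are therefore uncertain. No exon overlap with another gene was found for *Cd3d*, *Cd3g*, *Cd4*, *Cd8a*, *Cd8b1* and *Zap70*.

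The coreceptors bind MHC molecules and bring LCK to the receptor, CD4 on helper T cells and the CD8 alpha and beta chains on cytotoxic T cells. *Cd4* (chr6:124864692-124888221, minus strand) had 1701, 1093 and 4068 normalized counts in controls 1 to 3 and 352, 272 and 473 in *MxCDX2* mice 1 to 3. The highest *MxCDX2* value was below the lowest control value, and the wild-type control stood far above the other controls. The means were 2287 ± 1572 (SD, n = 3) and 366 ± 101, a 6.25-fold lower mean in *MxCDX2* marrow. The log2 fold change was -2.64 ± 0.51 (SE), with a 95% interval from -3.86 to -1.43 and an adjusted p of 0.0142. Without the wild-type control it was -1.92 (adjusted p = 0.00839). Without *MxCDX2* mouse 2 it was -2.47 and no longer passed the test (adjusted p = 0.0575).

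*Cd8a* (chr6:71373427-71379173, plus strand) and *Cd8b1* (chr6:71322788-71337494, plus strand) start 50639 bases apart. *Cd8a* had 203, 412 and 901 normalized counts in the controls and 657, 162 and 156 in the *MxCDX2* mice. *MxCDX2* mouse 1 lay within the control range and the other *MxCDX2* mice just below it, with a log2 fold change of -0.64 ± 0.74 (SE, adjusted p = 0.584). *Cd8b1* had 167, 317 and 817 normalized counts in the controls and 286, 60.7 and 76.6 in the *MxCDX2* mice. Again only *MxCDX2* mouse 1 reached the control range. The log2 fold change of *Cd8b1* was -1.62 ± 0.79 (SE), with a 95% interval from -3.51 to 0.26 (adjusted p = 0.191), and -0.77 without the wild-type control.

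Dendritic cell and NK cell markers were read beside the coreceptors. Of 6 markers of plasmacytoid dendritic cells, which carry CD4 in mice, 4 fell (*Klk1*, *Pacsin1*, *Cd209d* and *Siglech*) and none rose. *Siglech*, the surface receptor that defines these cells, had 3541, 2449 and 9160 normalized counts in the controls and 1254, 1180 and 871 in the *MxCDX2* mice. It had the same order of controls as *Cd4*, with the wild-type mouse highest and the *Mx1Cre* mouse lowest. Its log2 fold change was -2.20 ± 0.49 (SE, adjusted p = 0.0230), and -1.42 without the wild-type control (adjusted p = 0.00904). The summed level of the 6 markers was 6807 to 19301 normalized counts in the controls and 7476 to 9371 in the *MxCDX2* mice. In the latter most of it was *Tcf4*, a transcription factor at 5614 to 7767 there, with a log2 fold change of 0.82 that did not pass the test (adjusted p = 0.0978). *Tcf4* was called higher without the wild-type control (log2 fold change 1.25, adjusted p = 0.00597), and the log2 fold change of *Pacsin1* moved from -2.36 to -1.29. Without *MxCDX2* mouse 2 or mouse 3, 1 of the 6 markers was called, and without mouse 1, 2 were. Over all tested genes, 1443 of 15980 were called lower with all 6 mice. Without *MxCDX2* mouse 1, 2 or 3 this was 1117 of 16501, 889 of 16424 and 694 of 16302. Of 7 conventional dendritic cell markers, 1 fell, *Zbtb46* (log2 fold change -2.48, adjusted p = 0.0149, not called without *MxCDX2* mouse 3), with sums of 3904 to 8605 in the controls and 4366 to 5853 in the *MxCDX2* mice. *Clec9a*, of the same list, had a log2 fold change of 0.22 (adjusted p = 0.817). Without the wild-type control it was called higher (log2 fold change 1.16, adjusted p = 0.0392). No marker of these lists was at 0 in every mouse. The part of dendritic cells in the values of *Cd4* and *Cd8a* was not tested.

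LCK is the kinase that starts the signal, ZAP-70 the kinase that docks on the CD3 chains, and LAT the scaffold. *Lck* (chr4:129548344-129573641, minus strand) had 868, 982 and 1584 normalized counts in the controls and 943, 392 and 1048 in the *MxCDX2* mice. *MxCDX2* mice 1 and 3 lay within the control range and mouse 2 below it, with a log2 fold change of -0.53 ± 0.40 (SE, adjusted p = 0.400). *Zap70* (chr1:36761798-36782818, plus strand) had 190, 205 and 415 normalized counts in the controls and 293, 158 and 187 in the *MxCDX2* mice. The groups overlapped, with a log2 fold change of -0.35 ± 0.40 (SE, adjusted p = 0.584), and of 0.12 without the wild-type control. NK cells use both kinases. Of 11 NK cell markers, 1 fell, which is close to the 9.03% of all tested genes called lower. This was *Klrb1c* (log2 fold change -1.60, adjusted p = 0.0375), a call lost without control 2 or without *MxCDX2* mouse 2 or 3. Its log2 fold change was -1.05 without the wild-type control. The sum of the 11 markers was 5293 to 8883 normalized counts in the controls and 3062 to 6209 in the *MxCDX2* mice. None of these markers was at 0 in every mouse, and the part of NK cells in *Lck*, *Zap70* and *Cd247* was not tested.

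*Lat* (chr7:126363824-126369570, minus strand) had 817, 697 and 5427 normalized counts in controls 1 to 3 and 566, 313 and 809 in *MxCDX2* mice 1 to 3. The wild-type control held 7.17 times the mean of the other controls, the largest such ratio among the 10 members. *MxCDX2* mouse 3 lay between controls 1 and 2, and the other *MxCDX2* mice were below them. The log2 fold change was -2.04 ± 0.85 (SE) with a 95% interval from -4.07 to -0.01 and did not pass the test (adjusted p = 0.137), though it did with DESeq2 (adjusted p = 0.0264). Without the wild-type control it was -0.41 (adjusted p = 0.468), so the size of the difference rests on 1 mouse.

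In the same wild-type mouse, the sum of 8 megakaryocyte markers was 9.68 times the mean of controls 1 and 2, and all 8 markers were highest there among the controls. The sums were 36051, 26399 and 302361 normalized counts in controls 1 to 3 and 11876 to 15804 in the *MxCDX2* mice, with no marker at 0. All 8 log2 fold changes lay between -3.80 and -2.52. For 7 markers every *MxCDX2* mouse was below every control mouse, a separation found in 20.7% of all tested genes. Of these markers 2 were called lower, against 9.03% of all tested genes, among them *Gp9*, a platelet glycoprotein (log2 fold change -3.73). Without the wild-type control this value was -1.92 and 5 of the 8 markers were called, whereas leaving out any 1 of the *MxCDX2* mice left 0 called. The part of megakaryocyte RNA in the *Lat* values was not tested. Sums of the other lists were also higher in the wild-type control than in the mean of controls 1 and 2, by 2.67 times for plasmacytoid dendritic cells, 2.02 times for conventional dendritic cells, 1.43 times for NK cells and 2.29 times for the T-cell receptor constant regions. B-cell markers stood at 0.490 times, mast cell and basophil markers at 0.529 times and monocyte markers at 0.821 times. In controls 1 and 2 most of the mast cell and basophil sum was *Hdc*, at 46499 and 19355 normalized counts, against 7870 in the wild-type control. Ratios of single markers in that list ran from 0.239 for *Hdc* to 2.64 for *Gata2*, and 3 of the 7 were highest in the wild-type control. Among the NK cell markers, 9 of 11 were highest there among the controls. The plot of the wild-type control against the other controls places *Lat* next to the megakaryocyte list and *Cd3d* at 0.982.

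**Figure D2:**
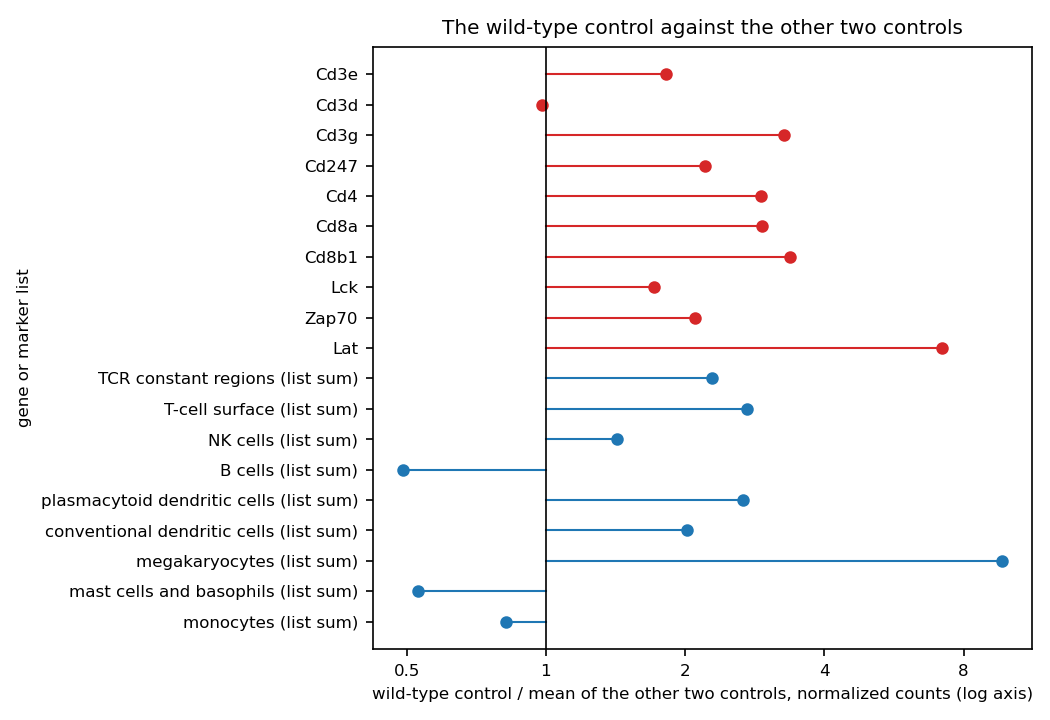
Normalized counts in the wild-type control divided by the mean of controls 1 and 2 (log axis), for the 10 members (red) and for the sums of 9 marker lists (blue), with a line at 1. Megakaryocyte markers (9.68) and *Lat* (7.17) had the highest ratios, *Cd3d* was at 0.982, and B-cell markers were lowest at 0.490.

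**Figure D3:**
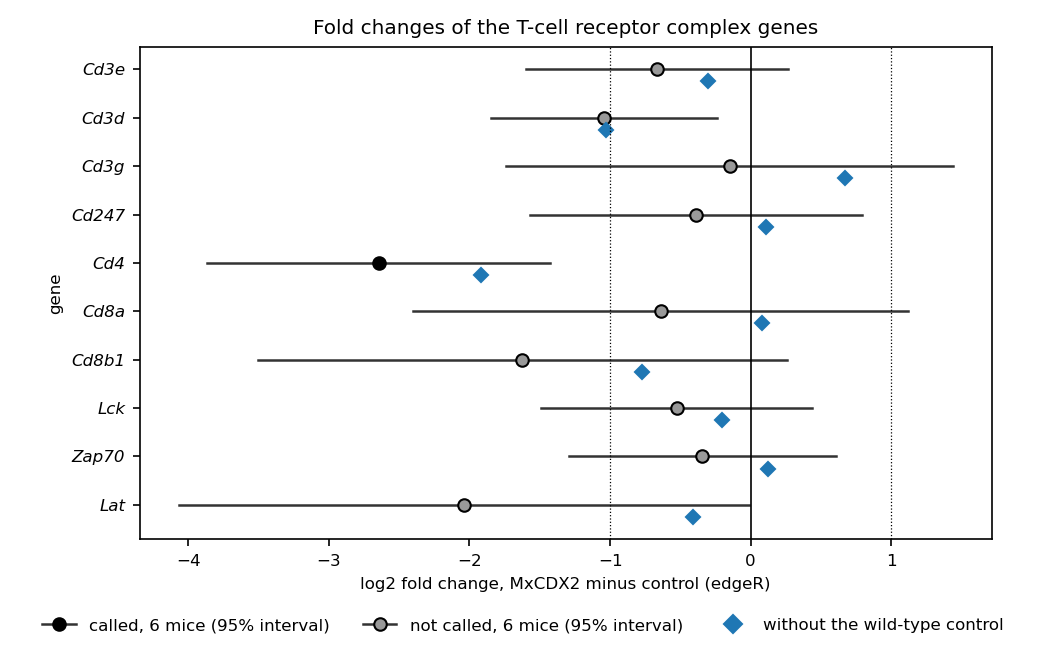
Log2 fold changes, *MxCDX2* minus control, of the 10 members from edgeR with 95% intervals (circles, black where called) and the same value without the wild-type control (blue diamonds). Only *Cd4* was called, 7 of the 10 intervals include 0, and without the wild-type control *Lat* moved from -2.04 to -0.41.

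Levels per length (RPKM, reads scaled by exon length and library size) ranked the members differently in the groups. In control marrow the order of mean RPKM was *Lat* (18.4 ± 21.4, SD, n = 3), *Cd4* (12.5 ± 8.57), *Cd3d* (8.94 ± 0.870), *Lck* (8.59 ± 2.89), *Cd8b1* (6.43 ± 5.04), *Cd8a* (3.06 ± 2.16), *Cd3g* (2.22 ± 1.70), *Zap70* (1.98 ± 0.924), *Cd3e* (1.79 ± 0.666) and *Cd247* (0.964 ± 0.490). In *MxCDX2* marrow it was *Lck* (5.96 ± 2.65), *Lat* (4.47 ± 1.97), *Cd3d* (4.34 ± 1.80), *Cd8b1* (2.09 ± 1.86), *Cd3g* (2.01 ± 1.37), *Cd4* (1.99 ± 0.550), *Cd8a* (1.96 ± 1.74), *Zap70* (1.56 ± 0.525), *Cd3e* (1.13 ± 0.480) and *Cd247* (0.736 ± 0.326). *Cd4* stood at rank 2 in control and at rank 6 in *MxCDX2* marrow, the largest move among the 10 members. In each group, 8 of the 9 neighbouring pairs differed by less than the larger of their SDs, the exceptions being *Cd3e* over *Cd247* in controls and *Cd3d* over *Cd8b1* in *MxCDX2* mice.

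The balance between members was read as ratios within each mouse, which need no scaling between libraries. The 9 ratios set *Cd247*, *Lck*, *Zap70*, *Lat*, *Cd4*, the sum of *Cd8a* and *Cd8b1*, and the sum of the constant regions against the sum of *Cd3e*, *Cd3d* and *Cd3g*, and compared the coreceptors with each other. With 3 mice against 3 the exact two-sided permutation test cannot give a p below 0.10, and after adjustment over the 9 ratios no p was below 0.45. In 2 of the 9 ratios the groups did not overlap.

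*Cd8a* over *Cd8b1* was 1.21, 1.30 and 1.10 in controls 1 to 3 and 2.29, 2.65 and 2.03 in *MxCDX2* mice 1 to 3. Every *MxCDX2* mouse thus had a higher share of the alpha chain, and the spread within each group was small. The mean log2 ratio was 0.27 ± 0.12 (SD, n = 3) in controls and 1.21 ± 0.19 in *MxCDX2* mice, a difference of 0.94 (exact permutation p = 0.1, adjusted 0.45). The wild-type control, which stood apart for 9 members, lay with the other controls in this ratio. The beta chain reaches the cell surface only paired with the alpha chain, whereas the alpha chain also pairs with itself, for instance on dendritic cells.

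*Cd4* over the CD3 sum was 1.40, 0.933 and 2.24 in the controls and 0.281, 0.342 and 0.862 in the *MxCDX2* mice. The values of the groups were separate but close, with 0.862 in *MxCDX2* mouse 3 just under 0.933 in control 2. The log2 difference was -1.71 (exact permutation p = 0.1, adjusted 0.45). *Cd4* over the *Cd8* sum overlapped, at 4.58, 1.5 and 2.37 against 0.373, 1.22 and 2.03.

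*MxCDX2* mouse 3 had the highest ratio of all 6 mice for *Lck* (1.91, against 0.492 to 0.870 in the other mice), *Cd247* (0.412, against 0.110 to 0.202), *Zap70* (0.342, against 0.158 to 0.234) and the constant regions (1.75, against 0.401 to 0.686), each over the CD3 sum. This mouse also had the lowest *Cd3d* value of the 6, 191 normalized counts, which enters the CD3 sum. *MxCDX2* mice 1 and 2 lay nearer to the controls in these ratios. Without mouse 3 the log2 difference turned from 0.15 to -0.41 for *Lck*, from 0.35 to -0.17 for *Cd247* and from 0.50 to -0.12 for the constant regions, each over the CD3 sum. In the plot of ratios by mouse, the *Cd8a* over *Cd8b1* panel shows the narrowest groups with a gap between them.

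**Figure D4:**
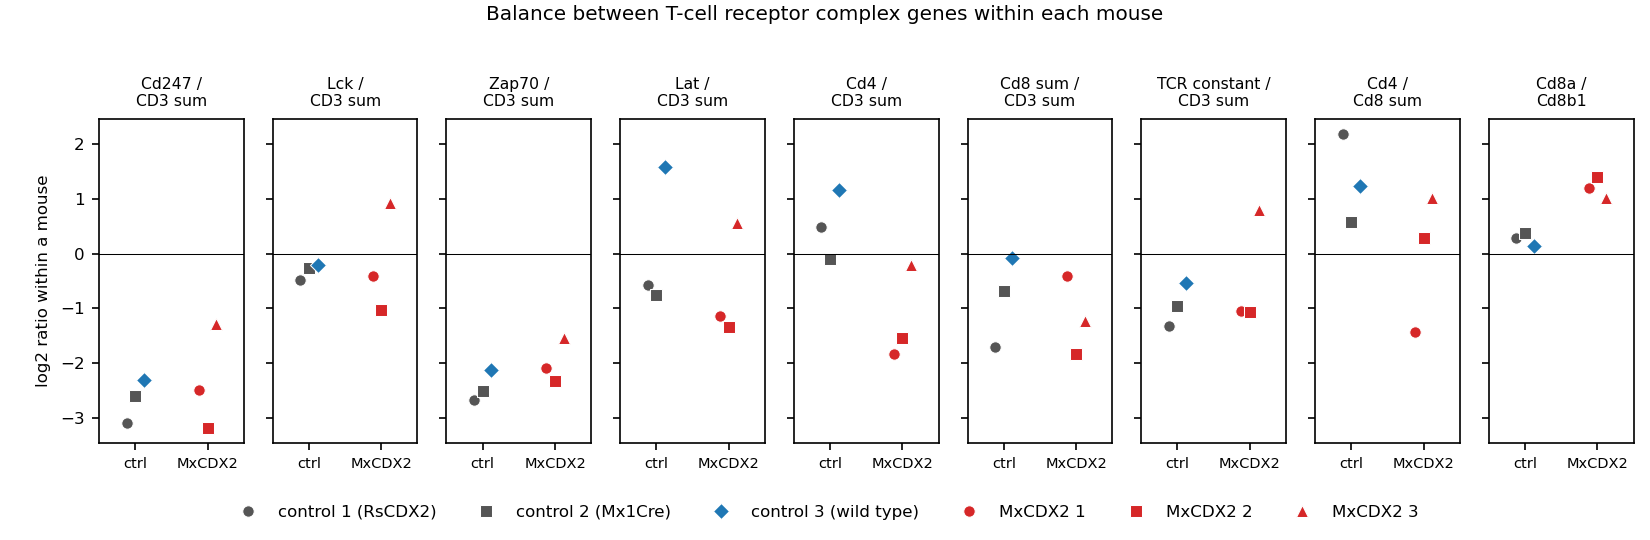
Log2 ratios of normalized counts within each mouse for 9 pairs, the CD3 sum being *Cd3e*, *Cd3d* and *Cd3g*, with controls on the left and *MxCDX2* mice on the right of each panel. The groups are separate for *Cd4* over the CD3 sum and for *Cd8a* over *Cd8b1*, and *MxCDX2* mouse 3 (triangle) is highest for *Cd247*, *Lck*, *Zap70* and the constant regions over the CD3 sum.

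The constant regions of the receptor itself did not pass the test with edgeR or DESeq2, and 0 of the 3 had an unadjusted p below 0.05. *Trac*, of the alpha chain, had 169, 212 and 408 normalized counts in the controls and 213, 109 and 163 in the *MxCDX2* mice, with a log2 fold change of -0.70 ± 0.42 (SE, adjusted p = 0.276). *Trbc1*, of the beta chain, had 165, 203 and 366 in the controls and 212, 142 and 412 in the *MxCDX2* mice, with a log2 fold change of 0.06 ± 0.48 (SE, adjusted p = 0.942). *Trbc2* had 152, 193 and 476 in the controls and 185, 128 and 385 in the *MxCDX2* mice, with a log2 fold change of -0.23 (adjusted p = 0.806). For both beta genes *MxCDX2* mouse 3 was nearest to the wild-type control and mouse 2 below all controls. The log2 fold changes of *Trac*, *Trbc1* and *Trbc2* without the wild-type control were -0.22, 0.49 and 0.45, none called. *Trbc1* and *Trbc2* are near-identical in sequence, so that the split of reads between them is uncertain.

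The gene segments of the receptor were also summed. The files hold 209 segment genes, 163 of which had a count in some mouse and 31 of which were tested. Of these, 0 were called by edgeR, DESeq2 or limma voom, and 2 had an unadjusted p below 0.05. The segments summed to 1095, 1320 and 2727 normalized counts in the controls and 1378, 957 and 2679 in the *MxCDX2* mice. The means were 1714 ± 884 (SD, n = 3) and 1671 ± 897. The means of the log2 sums differed by -0.05 (exact permutation p = 0.9). Alpha-locus segments were 247 to 625 in the controls and 195 to 321 in the *MxCDX2* mice, and beta-locus segments 632 to 1631 and 528 to 1193. The sign of the difference of the summed segments turned with the mice included, to 0.36 without the wild-type control, 0.29 without *MxCDX2* mouse 2 and 0.02 without mouse 1, and it was -0.45 without mouse 3. The 12 gamma-locus genes in the files summed to 78, 127 and 351 counts in the controls and to 149, 124 and 1176 in the *MxCDX2* mice, with mouse 3 above all others. Most of these counts in mouse 3 lay on the constant regions *Tcrg-C1* (306 counts, against 6 to 47 in the other mice) and *Tcrg-C2* (575, against 17 to 82), whereas *Tcrg-C4* had 117 counts there, against 36 to 119. Of the 12 genes 5 were tested and 0 were called, and the gamma constant regions are alike in sequence, so that the split of reads between them is uncertain.

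Beyond the members, 29 other genes of T-cell receptor signaling were read, many of which are also used in other blood cells. Of these, 5 fell, 0 rose and 24 did not pass the test, against 9.03% of all tested genes called lower and 4.59% called higher. *Grap2*, whose product GADS links LAT to SLP-76, had the largest fall, from 3083, 4025 and 5703 normalized counts in the controls to 891, 316 and 610 in the *MxCDX2* mice. Its log2 fold change was -2.82 ± 0.41 (SE, adjusted p = 0.00575) and -2.54 without the wild-type control. Among the others, *Rasgrp1*, a Ras activator, fell (log2 fold change -1.46, adjusted p = 0.0233), as did *Sit1*, a membrane adaptor (-1.44, adjusted p = 0.0350), and *Rhoh*, a small GTPase needed for ZAP-70 function (-1.19, adjusted p = 0.0232). *Sit1* was not called without the wild-type control (adjusted p = 0.0513). SLP-76 itself, encoded by *Lcp2*, had a log2 fold change of 0.01 (adjusted p = 0.977). Leaving out *MxCDX2* mouse 2 or mouse 3 left 1 of the 29 called in each case, and leaving out control 2 left 2.

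*Fyn*, the Src kinase closest to *Lck* in T-cell signaling, had 1841, 2193 and 6372 normalized counts in the controls and 1536, 895 and 1040 in the *MxCDX2* mice. All *MxCDX2* mice lay below all controls, with a log2 fold change of -1.58 that did not pass the test (adjusted p = 0.0663), and of -0.79 without the wild-type control (adjusted p = 0.0615).

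Among 11 other surface proteins of T cells, 1 rose, 1 fell and 9 did not pass the test. The shares over all tested genes were 4.59% called higher and 9.03% called lower, so that 1 fall among 11 is close to the background. *Cd28*, the costimulatory receptor, had 272, 217 and 528 normalized counts in the controls and 4675, 8828 and 5601 in the *MxCDX2* mice. Every *MxCDX2* mouse was far above every control, and the log2 fold change was 4.23 ± 0.43 (SE, adjusted p = 0.00214). Without the wild-type control it was 4.73 (adjusted p = 0.00220), and the call held with any 1 mouse left out. *Cd28* thus rose in marrow where no member of the receptor complex was called higher. *Cd2*, an adhesion receptor of T and NK cells, fell (log2 fold change -1.58, adjusted p = 0.0242), a call that was lost without *MxCDX2* mouse 2 (adjusted p = 0.0610) or mouse 3. *Cd5*, *Cd6*, *Cd27*, *Icos*, *Ctla4*, *Thy1*, *Cd96*, *Cd226* and *Cd40lg* had adjusted p between 0.0540 and 0.989. Of these, *Cd226*, an activating receptor of T and NK cells and platelets, had 617, 446 and 3657 normalized counts in the controls and 235, 171 and 269 in the *MxCDX2* mice. Its log2 fold change was -2.80, and without the wild-type control it was -1.22 and called lower (adjusted p = 0.0216).

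Of 9 T-cell transcription factors, 1 fell, *Satb1*, a chromatin organizer (log2 fold change -1.40, adjusted p = 0.00663). Over all tested genes, 9.03% were called lower, so that 1 of 9 is close to the background. Of 5 genes of naive T-cell recirculation, 3 fell, *Ccr7*, the lymph node homing receptor (log2 fold change -2.40, adjusted p = 0.0176), *S1pr1*, the receptor for egress (-2.19, adjusted p = 0.00768), and *Il7r*, the interleukin-7 receptor chain (-1.76, adjusted p = 0.0372). Without *MxCDX2* mouse 3, 1 of the 5 was called. B cells and their precursors express these genes as well, and of 9 B-cell markers 4 fell (among them *Fcer2a*, *Ms4a1* and *Cd22*) and none rose, with 2 called without control 2 or *MxCDX2* mouse 3 and 8 called without the wild-type control. Their sum was 14324 to 35485 normalized counts in the controls and 4013 to 9390 in the *MxCDX2* mice, with no marker at 0, and their part in these falls was not tested. Of the thymocyte precursor genes *Rag1*, *Rag2* and *Dntt*, 0 were called by edgeR, 0 by DESeq2 and 0 had an unadjusted p below 0.05, though *Rag2* was called lower without the wild-type control (log2 fold change -1.84, adjusted p = 0.0435) and 1 was called without *MxCDX2* mouse 3. *Ptcra*, the pre-receptor alpha chain, had too few counts for the test. Of 7 mast cell and basophil markers 4 fell (*Prss34*, *Fcer1a*, *Mcpt8* and *Ms4a2*), with 2 called without control 1, control 2 or *MxCDX2* mouse 2 and *Fcer1a* not called without the wild-type control (adjusted p = 0.0548).

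Relatives of the members that serve other receptors moved in both directions. Of 13 such genes, 5 fell, 1 rose and 7 did not pass the test, against 9.03% of all tested genes called lower and 4.59% called higher. *Lat2*, the LAT-like scaffold of B cells, mast cells and myeloid cells, had 1590, 2092 and 2391 normalized counts in the controls and 7569, 8761 and 9195 in the *MxCDX2* mice. Its log2 fold change was 2.07 ± 0.17 (SE, adjusted p = 0.00156), and the call held with any 1 mouse left out. In RPKM, *Lat2* stood at 17.0 ± 3.40 (SD, n = 3) in control and 71.4 ± 7.07 in *MxCDX2* marrow, against 18.4 ± 21.4 and 4.47 ± 1.97 for *Lat*. *Syk*, the relative of *Zap70*, had a log2 fold change of -0.56 ± 0.23 (SE, adjusted p = 0.128) and stood at 80.5 RPKM in controls against 1.98 for *Zap70*. *Fcer1g*, which takes the place of CD3 zeta in Fc receptors, had a log2 fold change of 0.38 (adjusted p = 0.121) and stood at 325 RPKM in controls against 0.964 for *Cd247*. The relatives that fell were the B-cell signaling genes *Blk*, *Cd79a*, *Blnk* and *Cd79b* (log2 fold changes between -2.06 and -1.71), and the myeloid Src kinase gene *Fgr* (-1.29, adjusted p = 0.0153). Of these 5, 1 was called without control 1, control 2 or *MxCDX2* mouse 2, and 0 without *MxCDX2* mouse 3. Of 7 monocyte markers 6 rose (among them *F13a1*, *Ccr2*, *Csf1r* and *Ly6c2*) and none fell, with sums of 56246 to 70169 in the controls and 279804 to 348823 in the *MxCDX2* mice. Their part in the *Lat2* and *Cd28* values was not tested.

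**Figure D5:**
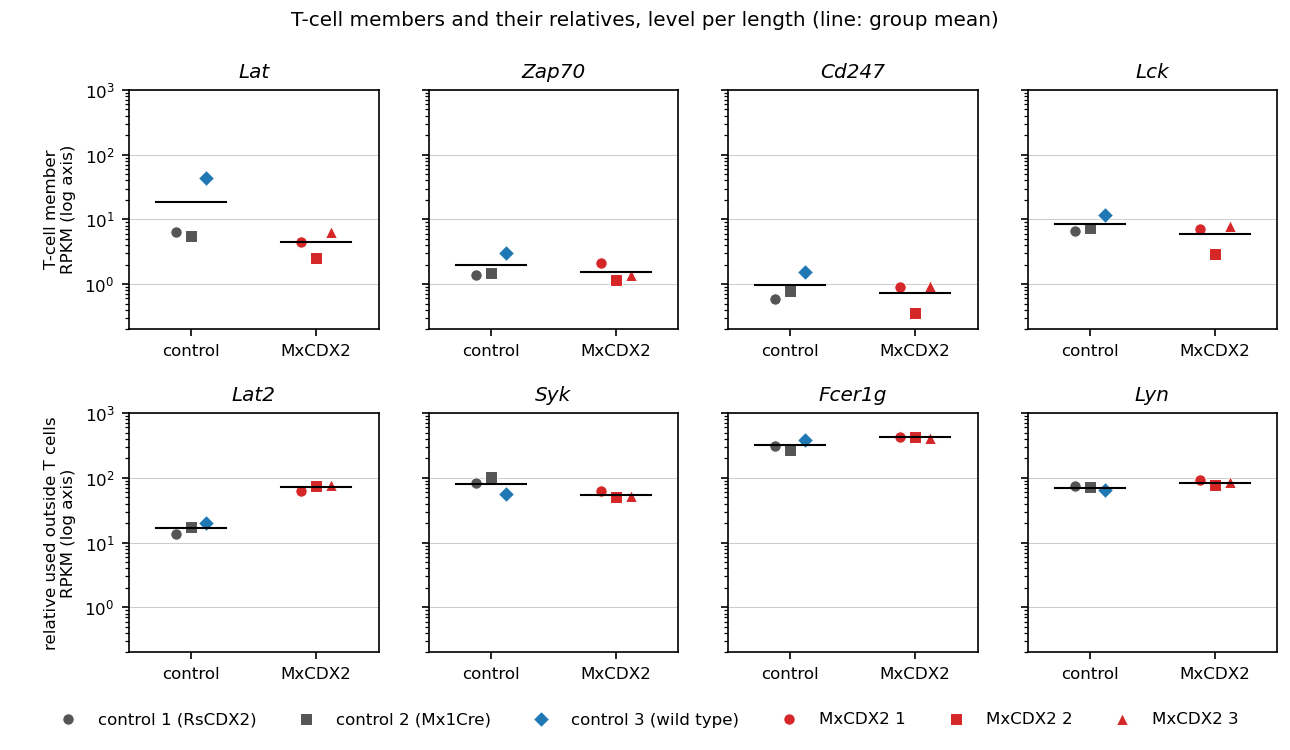
Level per length (RPKM, log axis) in each mouse of *Lat*, *Zap70*, *Cd247* and *Lck* (top row) and of a relative used mainly outside T cells, *Lat2*, *Syk*, *Fcer1g* and *Lyn* (bottom row), with group means as lines. *Lat2* is higher in all 3 *MxCDX2* mice than in all controls, and *Lat* is highest in the wild-type control.

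The tested genes outside these lists whose log2 values across the 6 mice were most like the mean of the members included *Cxcr3*, a chemokine receptor of activated T and NK cells (Pearson r = 0.995), *Kcnq1*, a potassium channel gene (0.995), *Aftph* (0.992), *Lag3*, an inhibitory relative of CD4 (0.989), *Il2rg*, the common gamma chain of cytokine receptors (0.989), *Chic1* (0.987) and *Bik* (0.983). The 8 most alike were picked as the highest of all tested genes, so the values are a description. *Cxcr3* had 364, 380 and 770 normalized counts in the controls and 457, 221 and 277 in the *MxCDX2* mice, which is the order of mice that *Zap70* had, from the wild-type control down to *MxCDX2* mouse 2. *Lag3* had 228, 304 and 1727 in the controls and 429, 112 and 160 in the *MxCDX2* mice. None of the 8 was called (adjusted p between 0.127 and 0.35).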

How the data were processed

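Bone marrow RNA of 3 *MxCDX2* and 3 control mice was sequenced as stranded mRNA libraries. The authors ran STAR 2.5 against GRCm38 and HTSeq 0.6.1 for gene counts, and deposited these raw counts as 1 table per mouse, not normalized. The strand setting of the counting is not given in the sources used here. Of all reads entered in the counting, with those not assigned to a gene included, between 9.22% and 14.1% fell on no gene and about 3% were ambiguous. These lines were left out. Groups came from the sample labels.

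Symbols, positions and exon lengths came from GENCODE M21 (GRCm38), which holds 37607 of the 39179 identifiers, and 139 of the 143 symbols looked up matched. The gamma constant regions are listed there as *Tcrg-C1* to *Tcrg-C4* and were read with the gene segments only. The main test was that of edgeR 4.0.16 in R 4.3.3 (TMM, filterByExpr, glmQLFit, glmQLFTest, no covariate), and p-values were adjusted over 15980 genes. A gene was called when its log2 fold change was beyond 1 in size with an adjusted p below 0.05, the thresholds of the study's methods. The standard error was derived from the F statistic. Ratios had 0.5 counts added. Code was tested on simulated data. Alternatives were DESeq2 1.42.0, limma 3.58.1 (voom), DESeq2's size factors, total counts, the 10 most abundant genes left out, other filters on low counts and thresholds, the replicate number as a block, and each mouse left out in turn. Promoters came from RefSeq (GRCm38.p6), read with Python 3.11.15 and pandas 2.3.3.

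The members and lists were chosen with earlier results of these data known. Named were all members, in each list up to 4 called genes with the largest fold change and at least 20 normalized counts, counterparts of members, and the 8 genes most like the members. Some genes that this rule names are not reported here. *Lcp2*, *Fyn*, *Tcf4*, *Rhoh*, the gamma constant regions, genes not called in the surface and precursor lists, and *Pou2f1* and *Gm16565* were named beyond this rule, after their values were seen. So were *Hdc*, *Gata2* and *Clec9a*. Between 38646101 and 49899650 reads were counted per mouse, and for members the spread between mice exceeds the counting error.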

Additional observations from a re-analysis of the deposited data

How the results depend on the processing

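Of the 10 members, 1 was called in the analysis as reported, 3 with DESeq2, 2 with limma voom and 0 at an adjusted p below 0.01, where *Cd4* had an adjusted p of 0.0142. Leaving out each mouse in turn gave 0 to 1 members called, the 0 arising without *MxCDX2* mouse 2. The cause was not tested. Of the 128 list genes tested beside the members, 31 were called lower, 7 at an adjusted p below 0.01, and 10 to 39 with each mouse left out in turn, with 12 without *MxCDX2* mouse 2 and 10 without *MxCDX2* mouse 3, both with fewer samples. Calls over all tested genes moved as well. Called lower were 1443 of 15980 with all mice, and 1140 of 16496, 1260 of 16275 and 1482 of 16179 without controls 1, 2 and 3. Without *MxCDX2* mice 1, 2 and 3 this was 1117 of 16501, 889 of 16424 and 694 of 16302. List counts with a mouse left out are to be read beside these values. With each mouse left out in turn, log2 fold changes ran from -0.86 to 0.67 for *Cd3g*, from -0.64 to 0.11 for *Cd247*, from -1.67 to 0.083 for *Cd8a* and from -0.64 to 0.12 for *Zap70*, none of them called. The upper end of each was the value without the wild-type control, and *Cd3g* was also above 0 without *MxCDX2* mouse 2 (0.15) or mouse 3 (0.075). The log2 differences of the 9 ratios and of the summed gene segments moved by less than the pooled SD of both groups under each alternative. With 3 mice per group, leaving out 1 mouse cannot move them by more, and total counts leave a ratio within a mouse unchanged. This is therefore no measure of stability. Signs still turned: without *MxCDX2* mouse 3 for *Lck* (-0.41), *Cd247* (-0.17) and the constant regions (-0.12) over the CD3 sum, without the wild-type control for *Lat* (0.015) and the *Cd8* sum (0.033) over the CD3 sum, without *MxCDX2* mouse 2 for the latter (0.001), and for the segments as given above and with total counts only (0.065).

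The replicate number was tried as a block, although the labels number only the *MxCDX2* mice, and controls were numbered in the order of the labels. Same-numbered mice correlated at 0.169, 0.286 and 0.182 in their deviations from the group means, and every mouse correlated best with its own number. The design gives no such pairs, and some matching of the mice must come out best. No pairing can be read from these values. With the block, 1 member was called, *Cd4* at -2.46 (adjusted p = 0.00733), and 2205 genes in all against 2177. Of the list genes, 23 were called lower with the block against 31, and 19 were called in both. The 12 not called with the block include *Siglech*, *Pacsin1*, *Cd209d*, *Klrb1c*, *Il7r*, *Fcer1a*, *Blk*, *Blnk*, *Cd79a* and *Cd79b*. All 8 called higher were called higher with it. With 3 mice per group, the spread between mice limits what can be called, and for *Cd3g* the 95% interval allows log2 fold changes from -1.74 to 1.44.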
